A study of Mus musculus with 12 samples.

Results

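The 9 genes described here are the monocyte chemokines Ccl2, Ccl7, Ccl8 and Ccl12, the receptor gene Ccr2, and the colony-stimulating factor genes Csf1, Il34 and Csf2 with the receptor gene Csf1r. They were chosen by name, by a rule that uses no measured value but was written with earlier results of these data known, and all 9 were found among the 32285 genes of the deposited tables. The samples came from SCC35, a mouse line used in a study of melanoma rejection. Lines 15 and 18 are labelled controls of a Mif knockout and lines 19 and 24 are labelled Mif KO, where Mif encodes macrophage migration inhibitory factor. Tumours of days 6, 10 and 16 and samples of day 0 were dissociated, tagged with hashtag antibodies, sorted for live cells and sequenced as single cells. Each line had its own library, and 2 further libraries held tumours of several lines. The labels give no strain, sex or age of the mice, and do not say how the control lines were made. They also do not say whether each hashtag was a separate animal, so the p-values below measure the spread between hashtag samples, with only 2 lines in each group.

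Ccl2, Ccl7, Ccl8 and Ccl12 encode small secreted proteins that draw monocytes out of the blood and into tissue. Ccr2 is the receptor for Ccl2, Ccl7 and Ccl12 and marks classical monocytes, which lower it as they mature into macrophages. Csf1 and Il34 are alternative ligands of one receptor, Csf1r, on which most macrophages and osteoclasts depend for survival and maturation. Csf2 encodes GM-CSF, a cytokine made by activated lymphocytes and some stromal and tumour cells that acts on myeloid cells through a different receptor.

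After hashtag assignment 100459 single cells remained, of which 91730 came from 21 control and 21 KO samples and the rest from 3 tumours called WT, which the labels place in no group. Libraries held between 151385933 and 239699029 UMIs (unique molecular identifiers, each counting 1 captured transcript). Hashtag doublets made up 17.9 to 30.9% of cells per library and were left out. Of the barcode sequences, 5.77% occurred in more than 1 library. Mif itself averaged 2452 ± 399 (SD, n = 11) and 2167 ± 268 (SD, n = 10) CPM (counts per 1000000, scaled to the class total) in line cells of lines 15 and 18. It averaged 109 ± 101 (SD, n = 11) and 467 ± 199 (SD, n = 10) CPM in lines 19 and 24, so both KO lines were below the control lines. In each KO line Mif differed by library. Line 19 had 42.6 to 55.4 CPM in its own library and 249 to 278 CPM in the mixed one, and line 24 had 226 to 437 CPM and 727 to 738 CPM. Cells with no immune or stromal marker profile are called line cells. Their 7 melanocytic marker genes summed to only 14.0 CPM with 1 at 0, so the labelled melanoma identity was not seen in these transcripts. Levels below are CPM of one cell class in one sample. Libraries of single lines cannot separate line from library.

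The 4 chemokine genes form a cluster on chromosome 11. In GRCm38 coordinates Ccl2 lies at chr11:82035571-82037453, Ccl7 at chr11:82045712-82047525, Ccl12 at chr11:82101845-82103400 and Ccl8 at chr11:82115185-82116799. All of them are on the plus strand, have 3 exons, and fit within 81229 bp. Csf2 lies elsewhere on the same chromosome at chr11:54247271-54249667 on the minus strand. The chemokines are near relatives, yet none of their 50-base transcript windows was shared with any other gene. For Ccr2, 1.91% of windows were shared with other genes, so a small part of its reads could be ambiguous.

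Ccl8 and Ccl12, the neighbours at the end of the cluster, both had their highest level in macrophages. Their start regions are shown because of that shared pattern, as 250 bases before and 50 after the start in RefSeq, GRCm38.p6, plus strand, with the TATA box motif TATAAA in capitals.
Ccl8, chr11:82114935-82115234: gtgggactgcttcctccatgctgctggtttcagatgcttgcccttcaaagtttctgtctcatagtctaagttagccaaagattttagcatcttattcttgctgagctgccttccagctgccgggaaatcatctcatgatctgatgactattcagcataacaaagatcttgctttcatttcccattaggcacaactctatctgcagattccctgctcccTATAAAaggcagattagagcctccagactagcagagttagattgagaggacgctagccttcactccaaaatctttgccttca
Ccl12, chr11:82101595-82101894: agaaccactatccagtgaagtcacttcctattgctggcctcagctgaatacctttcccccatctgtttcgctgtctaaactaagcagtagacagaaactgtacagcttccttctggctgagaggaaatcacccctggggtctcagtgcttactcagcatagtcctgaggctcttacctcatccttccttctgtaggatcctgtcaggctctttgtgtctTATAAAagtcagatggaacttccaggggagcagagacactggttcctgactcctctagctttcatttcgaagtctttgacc
The motif begins 32 bases before the start in Ccl8 and 31 bases before it in Ccl12. It occurs on either strand in 13.6% of 32851 promoters of this length. With the motifs aligned, 92 of 299 bases (30.8%) were identical, and 20 of the 50 bases around the motif. Both counts include the bases of the motif itself, which the alignment makes identical. Of the 9 members, 5 had a promoter in the table. Those of Ccr2 and Csf2 start elsewhere than the gene positions given here and are not described. Neither TGANTCA, the AP-1 motif found in 7.81% of promoters, nor GAGGAAGT, a PU.1 core found in 3.20%, occurred in the windows of Ccl8 and Ccl12. Such matches describe letters and are not evidence of binding.

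The members fell into distinct sources within the tumours. Over days 6 to 16 of the 4 lines, macrophages gave 81.6% of all Ccl12 UMIs, 65.6% of Ccl8 UMIs and 43.5% of Ccl7 UMIs. Ccl2 came mostly from line cells (58.8%), with 15.5% from macrophages and 14.3% from fibroblasts. Line cells also gave 90.0% of Csf1 UMIs, 91.6% of Il34 UMIs and 66.5% of Csf2 UMIs. Csf1r UMIs came from macrophages (52.2%), osteoclasts (10.8%) and monocytes (10.47%). Ccr2 UMIs came from macrophages (32.2%), monocytes (20.6%) and T cells (10.1%), while 31.3% lay in cells that passed no class gate. These shares depend on how many cells of each class were captured and on their RNA content.

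**Figure D1:**
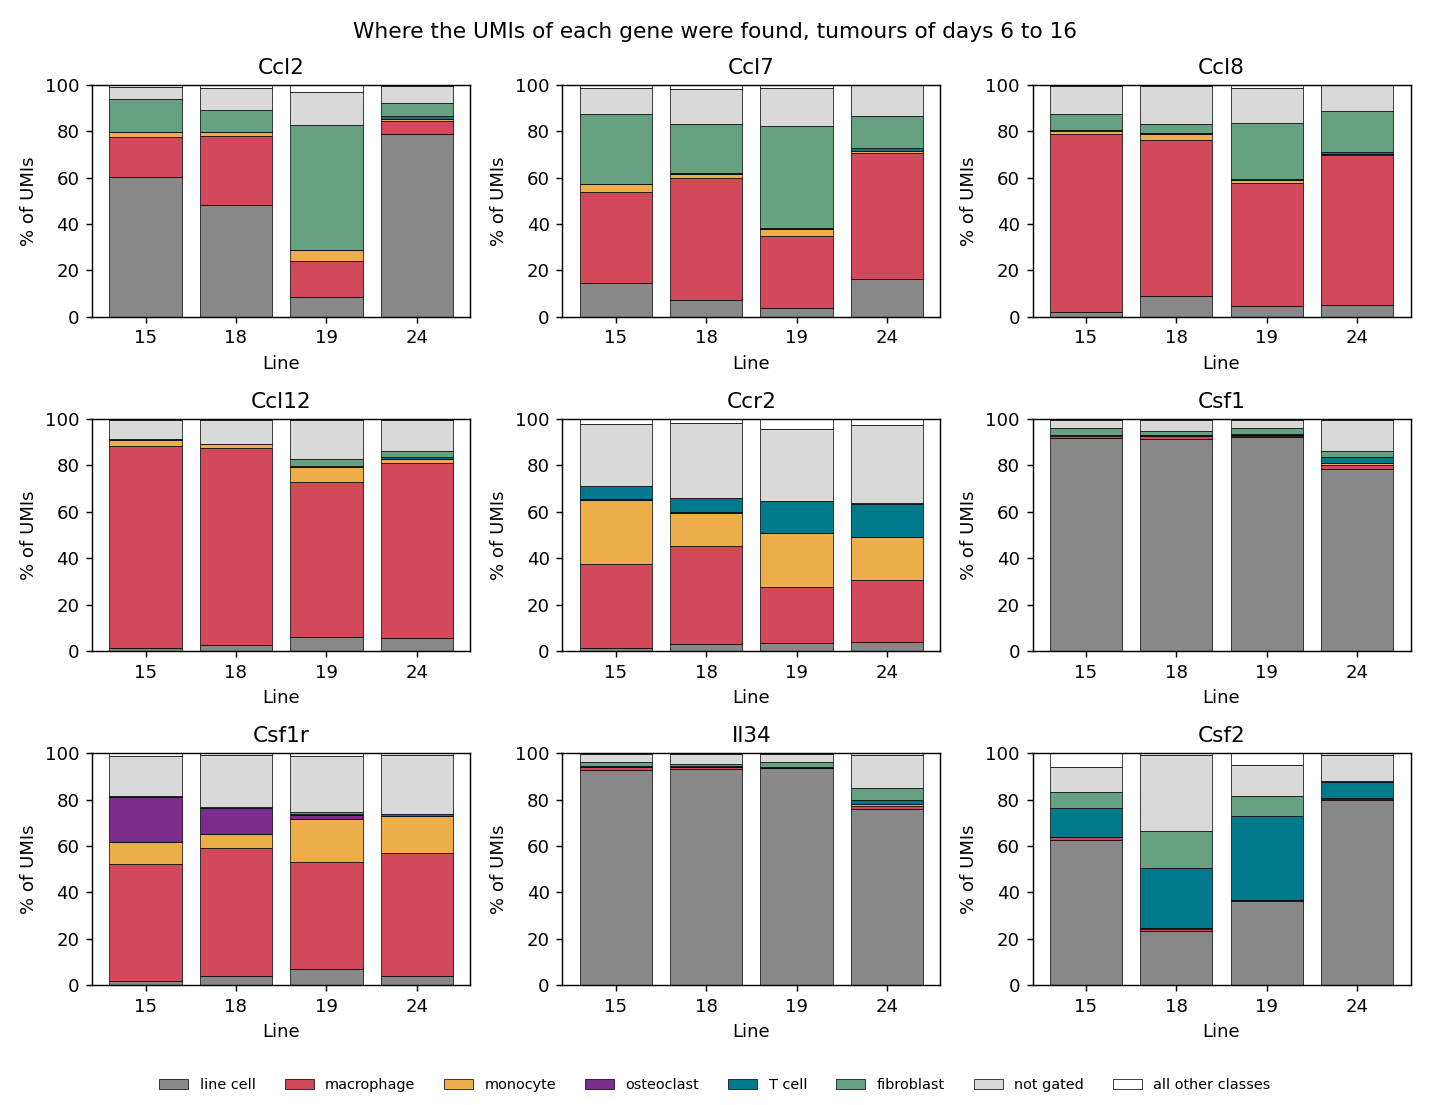
Stacked bars show the percent of each member's UMIs that came from each cell class (y axis, 0 to 100%), by line (x axis), over days 6 to 16. Line cells fill most of the Csf1 and Il34 bars in every line, whereas for Ccl2 they fill 79.0% in line 24 and 8.35% in line 19.

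Line 19 stood apart in the source of Ccl2. The line-cell share of Ccl2 UMIs was 60.3, 48.0 and 79.0% in lines 15, 18 and 24, but 8.35% in line 19, where fibroblasts gave 53.6% and macrophages 15.6%. For Ccl7, fibroblasts gave 43.6% in line 19 and 13.8% in line 24. Csf2 UMIs came from line cells (36.4%) and T cells (36.2%) in line 19, and from line cells (79.8%) in line 24.

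Per UMI of a class, Ccl2 averaged 1637 CPM in fibroblasts and 860 CPM in macrophages, a difference of 0.50 on the log2 scale that missed the threshold (adjusted p = 0.0504, permutation test over 30 tumours, higher in 20). Monocytes at 365 CPM were below macrophages (adjusted p = 4.5e-05, permutation test, in 30 of 31 tumours). Ccl7 was alike in order, at 1109.6 CPM in fibroblasts and 951 CPM in macrophages, with no difference beyond the spread (adjusted p = 0.492, permutation test, 30 tumours). Its sign turned, to -0.07 on the log2 scale, with stricter class gates. Ccl8 was higher in macrophages (619 CPM) than in fibroblasts (209 CPM) in 27 of 30 tumours (adjusted p = 3e-05, permutation test). Ccl12 was higher in macrophages (610 CPM) than in monocytes (64.0 CPM) in 31 of 31 tumours (adjusted p = 3e-05, permutation test). These and the other p-values of 1e-05 before adjustment are the smallest that 100000 resamples can give.

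The receptor genes differed in their order among myeloid classes. Ccr2 was highest in monocytes, at 195 ± 54.8 CPM (SD, n = 31), against 89.4 ± 38.6 CPM (SD, n = 35) in macrophages, and was higher in monocytes in 29 of 31 tumours (adjusted p = 3e-05, permutation test). T cells, at 88.5 CPM, did not differ from macrophages beyond the spread (adjusted p = 0.378, permutation test). Csf1r, the receptor for both Csf1 and Il34, was highest in osteoclasts at 483 ± 113 CPM (SD, n = 12), above macrophages in 12 of 12 tumours (adjusted p = 0.00117, permutation test). Macrophages at 310 CPM were above monocytes at 261 CPM in 21 of 31 tumours (adjusted p = 0.0256, permutation test). Fibroblasts held at most 16.6 CPM of Csf1r in any tumour. In GRCm38 Ccr2 lies at chr9:124101950-124113557 and Csf1r at chr18:61100598-61132149, both on the plus strand.

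Both Csf1r ligands, Csf1 at chr3:107741048-107760469 and Il34 at chr8:110741829-110805924 on the minus strand, were highest in line cells among the classes with at least 20 cells in enough tumours to compare. Csf1 averaged 244 CPM in line cells and 204 CPM in fibroblasts, and line cells were higher in 23 of 30 tumours (adjusted p = 0.00709, permutation test). Il34 averaged 20.5 and 18.4 CPM in the same classes, with line cells higher in 21 of 30 (adjusted p = 0.0332, permutation test). Among those classes Csf2 was highest in T cells at 52.9 CPM, against 8.52 CPM in fibroblasts (adjusted p = 0.0241, permutation test, higher in 17 of 25), and ranged from 0 to 266 CPM among tumours.

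**Figure D2:**
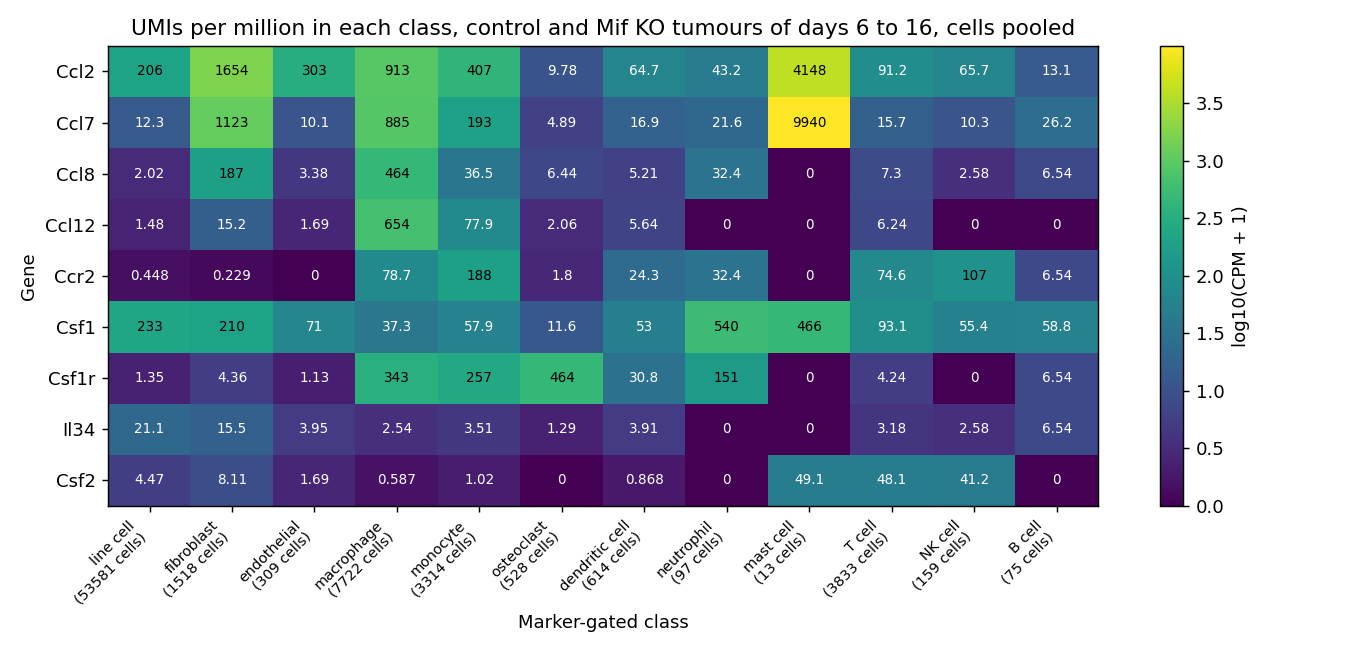
Heat map of pooled CPM, printed in each cell, for the 9 members (y axis) in the cell classes (x axis) over days 6 to 16 of the 4 lines, coloured by log10(CPM + 1). Ccl8 and Ccl12 are highest in macrophages and Csf1r in osteoclasts, while Ccl2 and Ccl7 are highest in the 13 mast cells, followed by fibroblasts.

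Rare cells carried high levels of single members. The 13 mast cells of days 6 to 16 held 405 UMIs of Ccl7, a pooled 9940 CPM (exact Poisson 95% interval 8995 to 10957 CPM, counting error only), and 169 UMIs of Ccl2, or 4148 CPM. A UMI of each gene was found in 12 of the 13 cells, and none of the 13 had a UMI of Ccl8, Ccl12, Ccr2 or Csf1r, which allows up to 90.5 CPM of each (exact Poisson 95% upper limit). The 97 neutrophils held 50 UMIs of Csf1, a pooled 540 CPM (exact Poisson 95% interval 401 to 712 CPM), and 14 UMIs of Csf1r, at a median depth of 751 UMIs per cell. The 24 pericytes had a pooled 1414 CPM of Ccl2, and their 5 UMIs of Il34 gave 26.5 CPM (exact Poisson 95% interval 8.60 to 61.8 CPM). With so few cells, no test across tumours was made.

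Ccl2 in line cells differed more between lines than between groups. In line 15 it ranged over days 6 to 16 from 137 through a median of 253 to 644 CPM, and in line 18 from 31.1 through 178 to 309 CPM. Line 19 lay between 3.21 and 18.4 CPM with a median of 5.59. Line 24 lay between 694 and 1535 CPM with a median of 945. The 2 KO lines thus bracketed the controls, with 8 of 17 KO tumours above all 18 control tumours and the other 9 below them all. In line 19 the 3 tumours from the mixed library, which also held line 15, had 11.01 to 18.4 CPM, and the 6 from its own library 3.21 to 9.12 CPM.

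Day 0 samples are not described further in the labels, which do not say whether they were cultured cells. The KO lines also bracketed the controls there. Line 15 had 20.2 and 8.69 CPM of Ccl2, line 18 had 22.9, line 19 had 2.03 and 2.06, and line 24 had 129 and 99.5 CPM. By day 6 line 15 had reached 137, 323 and 179 CPM, line 18 31.1, 33.6 and 41.0, line 19 9.12, 5.59 and 18.4, and line 24 915 and 1120 CPM. Every day-6 value was above every day-0 value of its own line. In line 18 the rise continued to 278, 178 and 216 CPM at day 10.

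Fitted over all 42 samples with edgeR's quasi-likelihood test, Ccl2 in line cells gave a KO against control difference of 1.20 ± 0.64 on the log2 scale (SE, adjusted p = 0.118). Without line 24 the difference turned to -4.52 (adjusted p = 1.01e-09), without line 19 it was 2.27 (adjusted p = 5.22e-08), and with library as a term it was -1.80 (adjusted p = 0.301). No single KO effect on Ccl2 described both lines. Between the KO lines, in a comparison added after the values were seen, line 24 was higher than line 19 by 6.77 ± 0.43 (SE, edgeR adjusted p = 5.84e-17), 124-fold between their means of days 6 to 16. Line 15 was above line 18 by 0.92 ± 0.34 (SE, edgeR adjusted p = 0.0429). Here and below, library was not a term in these comparisons of lines. The mixed libraries set line 19 beside line 15 and line 24 beside line 18, so line and library were not separated in them.

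Ccl7 in line cells followed the same order of lines. Line 15 averaged 27.4 ± 15.99 CPM (SD, n = 9) and line 18 11.2 ± 6.11 CPM (SD, n = 9). Line 19 averaged 2.63 ± 1.38 CPM (SD, n = 9) and line 24 28.1 ± 16.03 CPM (SD, n = 8). Line 24 exceeded line 19 without overlap, by 3.23 ± 0.37 on the log2 scale (SE, edgeR adjusted p = 1.17e-09), and overlapped line 15. The line-cell level of Ccl7 was 0.22 to 3.49% of that in macrophages, where macrophage marker genes in line cells stood at 0.10 to 1.47% of their macrophage level. In line 19 the Ccl7 ratio of 0.22% lay within the marker range of that line, 0.12 to 0.59%. The line-cell gate itself limits immune and myeloid marker UMIs, Cd68 among them, which can lower the marker ratios. For Ccl2 the ratio of line-cell to macrophage level was 30.3, 12.1, 0.93 and 162% in lines 15, 18, 19 and 24.

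Ccl8 and Ccl12 were near the floor in line cells. Ccl8 averaged 1.295, 3.26, 1.49 and 4.09 CPM and Ccl12 1.03, 1.78, 0.92 and 4.49 CPM in lines 15, 18, 19 and 24. Both were higher in line 24 than in line 19, Ccl8 by 1.27 ± 0.37 and Ccl12 by 2.05 ± 0.32 on the log2 scale (SE, edgeR adjusted p = 0.00323 and 9.02e-07). These line-cell levels were 0.13 to 0.99% of the macrophage levels, within the range of macrophage markers in all but 1 instance. The part of transcripts carried over from macrophages was not tested.

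Csf1, a ligand of Csf1r, overlapped among lines in tumours of days 6 to 16. Over days 6 to 16 the control lines 15 and 18 averaged 263 ± 47.9 CPM (SD, n = 9) and 196 ± 57.6 CPM (SD, n = 9). The KO lines 19 and 24 averaged 241 ± 48.0 CPM (SD, n = 9) and 281 ± 30.7 CPM (SD, n = 8). Line 15 was above line 18 by 0.40 ± 0.13 on the log2 scale (SE, edgeR adjusted p = 0.0181). The highest values were those of line 19 at day 0, 506 and 520 CPM. At that day line 24 had 340 and 334 CPM, line 15 had 286 and 279, and line 18 had 261 CPM. KO samples were higher by 0.26 ± 0.10 on the log2 scale (SE, edgeR adjusted p = 0.0295), and this call was lost without day 0 (0.20, adjusted p = 0.122), without line 18 (0.09, adjusted p = 0.422), without either KO line, and with library as a term (0.16, adjusted p = 0.582).

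Il34 differed between lines and days. Line means were 19.3 (line 15), 26.0 (line 18), 21.2 (line 19) and 14.9 CPM (line 24) and did not differ between KO and control samples beyond the spread (-0.10 ± 0.12 on the log2 scale, SE, edgeR adjusted p = 0.509). Line 15 was below line 18, at -0.43 ± 0.15 (SE, edgeR adjusted p = 0.0339). Over the 4 lines it rose from 16.4 ± 1.71 CPM (SD, n = 11) at day 6 through 20.7 ± 5.88 (SD, n = 12) at day 10 to 24.0 ± 7.15 CPM (SD, n = 12) at day 16, by 0.51 ± 0.15 on the log2 scale (SE, edgeR adjusted p = 0.00603). Line 24 differed from this course, with 30.9 and 28.9 CPM at day 0 and 13.3 to 16.9 CPM in all 8 later tumours. In the other lines day 0 lay between 10.1 and 15.0 CPM.

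Csf2 in line cells was highest in line 24 among the labelled lines. Its 8 tumours ranged from 16.5 through a median of 29.0 to 54.6 CPM, whereas line 15 had 0.95 to 5.65, line 19 0.39 to 2.58 and line 18 0.05 to 0.98 CPM. No tumour of another labelled line reached the lowest of line 24, while the 3 WT tumours, in no labelled group, had 4.96 to 21.9 CPM. The KO against control difference of 3.28 ± 0.64 on the log2 scale (SE, edgeR adjusted p = 6.40e-05) became -0.34 (adjusted p = 0.620) without line 24, and the call was lost in the mixed libraries alone (4.15, adjusted p = 0.103). Line 24 was above line 19 by 4.74 ± 0.33 and line 15 above line 18 by 2.99 ± 0.48 (SE, edgeR adjusted p = 1.21e-15 and 6.04e-06).

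Receptor transcripts were scarce in line cells. Ccr2 averaged 0.25, 0.45, 0.29 and 1.77 CPM and Csf1r 1.21, 2.004, 0.69 and 3.20 CPM in lines 15, 18, 19 and 24. The KO against control difference in Ccr2, 1.28 ± 0.40 on the log2 scale (SE, edgeR adjusted p = 0.00776), thus rests on levels of at most 2.76 CPM. Ccr2 in line cells was 0.35, 0.57, 0.26 and 1.72% of its macrophage level in lines 15, 18, 19 and 24. Macrophage markers stood at 0.10 to 0.41, 0.20 to 0.56, 0.12 to 0.59 and 0.47 to 1.47%, so their range was also highest in line 24. The part of Ccr2 from other cells was not tested. All 8 tumours of line 24 lay above every control tumour, whereas the mean of line 19 lay between those of the control lines. The call was lost in 5 of 12 alternatives, among them library as a term (0.95, adjusted p = 0.0783), the mixed libraries alone (1.09, adjusted p = 0.281) and leaving out line 15 (0.88, adjusted p = 0.179).

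Counted together, 3 of 9 members (Ccr2, Csf1 and Csf2) were higher and none was lower in KO line cells, beside 50.6% of all 12724 genes tested. Between lines 24 and 19, in a fit that did not separate line from library, 7 of 9 members were higher. Csf1 (-0.00) and Il34 (-0.19) were not past the threshold. Of all genes 58.5% passed, 29.8% higher and 28.7% lower in line 24. That fit includes day 0, where Csf1 was lower and Il34 higher in line 24. As a percent of the macrophage level, Ccl8, Ccl12 and Csf1r in line cells lay within the range of macrophage markers in both lines. That range was 0.12 to 0.59% in line 19 and 0.47 to 1.47% in line 24. Csf1r stood at 0.25 and 0.83%, and the part carried over from macrophages was not tested. Over days 6 to 16 the mean of line 24 was 1.17 times that of line 19 for Csf1 and 0.70 times for Il34, for which 6 of 8 tumours of line 24 lay below all of line 19. Between lines 15 and 18, Ccl2, Ccl7, Csf1 and Csf2 were higher and Ccl8 and Il34 lower in line 15, 6 of 9 beside 24.5% of all genes. Of these calls, Ccl2 was lost with DESeq2 (0.85, adjusted p = 0.0683) and Ccl8 with the other hashtag call (-0.94, adjusted p = 0.0925) and stricter class gates (-0.58, adjusted p = 0.102). The 3 of 9 members higher in KO line cells stand beside 27.1% of all genes higher and 23.4% lower there, a count near the share of genes higher. Most genes, 58.5%, differed between lines 24 and 19 as well.

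The labels do not give whether samples of days 0 and 6 differ in more than time. From day 0 to day 6, in a comparison added after the values were seen, Ccl2 rose by 3.04 ± 0.48, Ccl7 by 3.04 ± 0.53, Csf2 by 4.20 ± 0.56, Ccl12 by 1.83 ± 0.48 and Ccr2 by 1.31 ± 0.45 on the log2 scale in line cells (SE, edgeR adjusted p = 1.73e-06, 8.96e-06, 6.31e-08, 0.00179 and 0.0141). Csf1 fell by 0.35 ± 0.14 (SE, edgeR adjusted p = 0.0355). These are 6 of 9 members, beside 51.2% of all genes tested, and the Ccr2 call was lost with stricter class gates (1.01, adjusted p = 0.0704). Macrophages made up at most 0.101% of cells at day 0, and the part of transcripts from infiltrating cells in these rises was not tested. From day 6 to day 16 only Ccl7 (0.78 ± 0.31, SE, edgeR adjusted p = 0.0457) and Il34 of the 9 rose in line cells. Of all genes 20.2% were higher and 16.5% lower. The Ccl7 call was lost in 5 of 12 alternatives, among them DESeq2 (0.72, adjusted p = 0.101), the mixed libraries alone (0.14, adjusted p = 0.875) and leaving out line 15 or 18 (adjusted p = 0.394 and 0.262). The Il34 call was lost in the mixed libraries alone (adjusted p = 0.0942) and without line 18 (0.39, adjusted p = 0.134).

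In the fit over all tumours the 4 chemokines in macrophages did not differ between groups beyond the spread. Ccl2 averaged 955 ± 290 CPM (SD, n = 18) in control and 759 ± 281 CPM (SD, n = 17) in KO tumours. Ccl7 averaged 880 ± 334 and 1026 ± 459 CPM, Ccl8 550 ± 533 and 693 ± 448 CPM, and Ccl12 606 ± 231 and 614 ± 250 CPM in the same groups. Their fitted differences were -0.31 ± 0.15 for Ccl2, 0.19 ± 0.16 for Ccl7, 0.58 ± 0.30 for Ccl8 and 0.05 ± 0.19 for Ccl12 on the log2 scale (SE, edgeR adjusted p = 0.106, 0.366, 0.128 and 0.870). The 124-fold contrast of Ccl2 between line cells of lines 24 and 19 had no counterpart here, with macrophage means of 664 and 844 CPM in those lines. Ccl8 was the most variable, from 96.8 to 1912 CPM among control tumours.

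Ccr2 and Csf1 were the members past the threshold in macrophages, 2 of the 7 tested, beside 37% of all genes. Ccr2 averaged 75.4 ± 31.7 CPM (SD, n = 18) in control and 104 ± 40.6 CPM (SD, n = 17) in KO tumours, a rise of 0.56 ± 0.13 on the log2 scale (SE, edgeR adjusted p = 0.00108). The ranges overlapped, at 34.7 to 136 and 59.9 to 178 CPM. Csf1 averaged 30.6 ± 7.80 and 44.9 ± 15.1 CPM, a rise of 0.71 ± 0.14 (SE, edgeR adjusted p = 9.67e-05), with ranges of 14.2 to 41.0 and 20.9 to 79.2 CPM. Both calls were lost with library as a term (0.38 and 0.22, adjusted p = 0.382 and 0.629) and in the mixed libraries alone, Ccr2 also without line 15 and Csf1 without line 24 (0.47, adjusted p = 0.0645). In the mixed libraries alone a member other than Ccr2 and Csf1 passed. Csf1r did not differ (-0.01 ± 0.10, SE, edgeR adjusted p = 0.965).

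Csf1 in macrophages stood at 11.1, 18.2, 17.1 and 20.2% of its line-cell level in lines 15, 18, 19 and 24. Among genes of at least 200 CPM in line cells, the lowest 1% had ratios up to 7.98, 15.7, 11.5 and 16.5% in those lines. Macrophage Csf1 lay near the low end of the ratios of abundant line-cell genes, and the part of free RNA or line-cell transcripts in its KO difference was not tested.

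Macrophage receptors moved in opposite directions over time. Ccr2 fell from 123 ± 36.8 CPM (SD, n = 11) at day 6 through 85.5 ± 35.0 (SD, n = 12) at day 10 to 62.7 ± 15.5 CPM (SD, n = 12) at day 16, a change of -1.05 ± 0.16 on the log2 scale (SE, edgeR adjusted p = 1.87e-05). Csf1r rose from 233 ± 71.2 CPM (SD, n = 11) to 354 ± 36.5 (SD, n = 12) and 337 ± 72.0 CPM (SD, n = 12), by 0.58 ± 0.11 (SE, edgeR adjusted p = 0.000339). Ccl7 fell from 1162 ± 510 CPM (SD, n = 11) at day 6 to 685 ± 217 CPM (SD, n = 12) at day 16, by 0.72 ± 0.20 (SE, edgeR adjusted p = 0.0113). These were 3 of the 7 members tested, beside 17% of all genes. The Ccl7 call was lost without line 19, 24 or 15 in turn (adjusted p = 0.129, 0.133 and 0.0605), and all of them in the mixed libraries alone.

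Within macrophages the chemokines went together with Mrc1, which encodes the mannose receptor. In the 33 tumours compared, cells with a Mrc1 UMI had more Ccl2 (1098 against 569 CPM), Ccl7 (1205 against 587 CPM), Ccl8 (921 against 424 CPM) and Ccl12 (797 against 372 CPM) than cells without, in 29, 32, 31 and 32 tumours (adjusted p = 1.75e-05 for each, permutation test over tumours). Ccr2 was lower in Mrc1-positive cells (79.1 against 102 CPM, adjusted p = 0.000168, permutation test), Csf1r higher (325 against 293 CPM, adjusted p = 0.0167, permutation test), and Csf1 not different beyond the spread (adjusted p = 0.356, permutation test). Mrc1-positive cells were also deeper, with a median of 3339 UMIs against 2302. They made up 58.6, 57.4, 45.4 and 32.5% of macrophages in lines 15, 18, 19 and 24. The split was added after the values were seen.

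The chemokines were also found in the same macrophages. With each cell thinned to 1000 UMIs, a Ccl7 UMI was present in 59.5% of the 2553 macrophages with a Ccl2 UMI and in 17.4% of the 4866 without. Ccl12 was present in 40.9 and 17.1% and Ccl8 in 19.1 and 10.9% of the same cells. A Ccl2 UMI was seen in 34.4% of all thinned macrophages (51.0% unthinned) and in 1.80 to 6.36% of thinned T cells per line. In line 24, whose line cells were highest, that T-cell share was 6.36%.

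Monocytes, gated on myeloid and monocyte marker genes with little or no C1q, had lower Ccl7 and Ccl2 in KO tumours. Ccl7 averaged 248 ± 187 CPM (SD, n = 16) in control and 83.2 ± 102 CPM (SD, n = 15) in KO tumours, a change of -1.67 ± 0.38 on the log2 scale (SE, edgeR adjusted p = 0.000967). Line 15 averaged 294 CPM, line 18 188, line 19 128 and line 24 43.7 CPM, so the 4 lines lay in order of group with overlapping ranges. Ccl2 averaged 431 ± 175 and 294 ± 161 CPM (-0.57 ± 0.18, SE, edgeR adjusted p = 0.0166), opposite to the high Ccl2 of line 24 line cells. Csf1 was higher in KO monocytes, at 74.8 ± 31.2 against 43.8 ± 21.8 CPM (0.68 ± 0.21, SE, edgeR adjusted p = 0.0122).

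These 3 of the 6 members tested in monocytes stand beside 25.1% of all genes. Without line 24 all 3 calls were lost (Ccl7 -0.84, adjusted p = 0.230), and without line 15 those of Ccl2 and Csf1 (adjusted p = 0.251 and 0.0534). With library as a term the Ccl2 and Csf1 calls were lost as well (-0.20 and 0.42, adjusted p = 0.871 and 0.692), and likewise in the mixed libraries alone. Monocyte Csf1 was 17.8 to 28.7% of the line-cell level, against 11.1 to 20.8% for the lowest 1% of abundant line-cell genes, and its part from line cells was not tested. Ccr2, at 205 ± 57.7 CPM (SD, n = 16) in control and 184 ± 51.3 CPM (SD, n = 15) in KO monocytes, and Csf1r, at 278 and 242 CPM, were not past the threshold. Over time none of the 6 members passed in monocytes by edgeR, beside 5.49% of all genes, while Ccl2, Csf1r and Csf1 had unadjusted p-values under 0.05 and DESeq2 called 1 member.

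T cells carried Ccr2 and Csf2. Ccr2 averaged 117 ± 36.8 CPM (SD, n = 13) in control and 66.4 ± 37.3 CPM (SD, n = 17) in KO tumours, a fall of 0.91 ± 0.23 on the log2 scale (SE, edgeR adjusted p = 0.0100), the reverse of the direction in macrophages. It was the only 1 of the 4 members tested that passed, beside 10.2% of all genes, and the call was lost when line 15, 18 or 24 was left out in turn (adjusted p = 0.0515 to 0.130), with library as a term (-1.45, adjusted p = 0.280) and in the mixed libraries alone (-1.64, adjusted p = 0.0721). Csf2 in T cells, at 57.1 ± 79.8 and 49.7 ± 63.6 CPM, did not differ beyond its spread (-0.26 ± 0.56, SE, edgeR adjusted p = 0.832). Whether the make-up of T-cell subsets moved with Ccr2 was not tested.

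**Figure D3:**
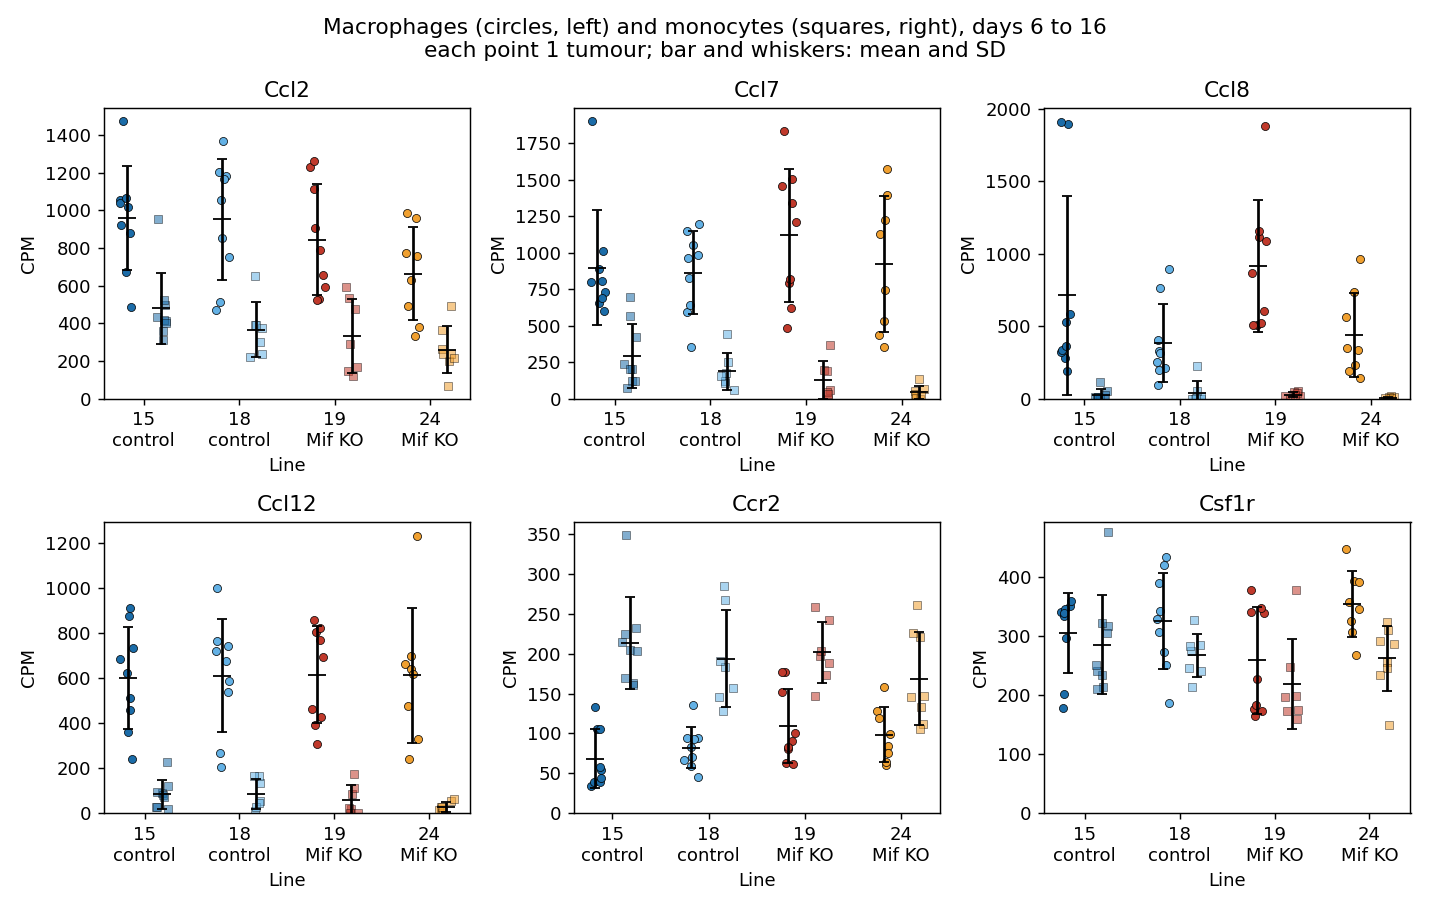
Levels (CPM) of 6 members in macrophages (circles) and monocytes (squares) by line over days 6 to 16, each point 1 tumour, with mean and SD. Ccr2 lies higher in monocytes and Ccl7 and Ccl12 lie higher in macrophages in each line, and the lines overlap for every gene.

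For fibroblasts, present in small numbers, the levels by group are given with no test. Ccl2 averaged 1240 ± 1097 CPM (SD, n = 17) in control and 2156 ± 1262 CPM (SD, n = 13) in KO tumours, Csf1 156 ± 52.0 and 267 ± 63.5 CPM, and Ccl8 76.0 and 384 CPM. In line 19, where line cells had almost no Ccl2, fibroblasts averaged 2066 ± 1132 CPM (SD, n = 8) of it. Cells in the fibroblast gate also made up 0.535 and 0.605% of line 24 at day 0, against 0.204 to 0.773% at day 16. At day 0 they were 0.446 and 0.181% of line 19, 0 and 0.262% of line 15 and 0% of line 18. Whether line cells of any line entered this gate was not tested.

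Summed over all cells of a sample, Csf1 and Csf2 were higher in KO samples, 2 of 9 members beside 50.3% of all genes. Csf1 was up by 0.30 ± 0.09 and Csf2 by 2.59 ± 0.46 on the log2 scale (SE, edgeR adjusted p = 0.00377 and 1.95e-05). The Csf1 call was lost with library as a term (0.25, adjusted p = 0.230), in the mixed libraries alone (0.17, adjusted p = 0.609) and without line 18 or 19 (adjusted p = 0.112 and 0.0626). The Csf2 call was lost without line 24 (0.37, adjusted p = 0.414) and in the mixed libraries alone (2.95, adjusted p = 0.0968). Ccl2 gave 0.66 ± 0.43 (SE, edgeR adjusted p = 0.199), which turned to -1.85 (adjusted p = 8.12e-05) without line 24. In such sums, fewer cells of a class and less RNA per cell cannot be told apart.

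Macrophage shares were lower in KO tumours, while monocyte shares were not. Macrophages made up 11.3 ± 5.80% (SD, n = 18) of cells in control and 6.20 ± 3.56% (SD, n = 17) in KO tumours, a difference of -5.11 percentage points (adjusted p = 0.00480, permutation test). By day the difference was -2.94 points at day 6 (exact permutation p = 0.318), -3.26 at day 10 (exact permutation p = 0.177) and -9.34 at day 16 (exact permutation p = 0.00649). Over the means of the 4 lines the exact permutation p was 0.333, the smallest that 2 lines against 2 can give. Line 19 had the lowest mean at 4.52%, followed by line 24 at 8.08%, line 18 at 10.2% and line 15 at 12.4%. Without line 19 the difference was -3.22 points (permutation p = 0.161).

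Monocytes made up 4.12 ± 3.76% (SD, n = 18) in control and 4.22 ± 3.90% (SD, n = 17) in KO tumours (adjusted p = 0.938, permutation test). At day 10 they were lower in KO tumours, at 1.61 against 4.56% (exact permutation p = 0.0216). The KO mean was the higher one at day 6, at 8.08 against 5.56%, and at day 16, at 3.62 against 2.24% (exact permutation p = 0.426 and 0.372). Osteoclasts, the class with the highest Csf1r, made up 1.38 ± 1.14% in control and 0.0193 ± 0.0342% in KO tumours (adjusted p = 6.00e-05, permutation test, added after the values were seen), and only 9 of the 528 osteoclasts came from the KO lines.

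The line with the lowest line-cell Ccl2, line 19, had the lowest macrophage share, but line 24, with the highest Ccl2, was also below both control lines on average. Shares are percents of all assigned cells, those in no class included. Cells in no class numbered 5492 in line 24, against 1992, 3234 and 2927 in lines 15, 18 and 19. The library of line 24 was also the shallowest, with a median of 3072 UMIs per cell. The part of ungated macrophages in the lower share of line 24 was not tested. Across the tumours within each line, 32 relations of Ccl2, Ccl7, Csf1 or Il34 in line cells to the macrophage or monocyte share were computed. Of these, 23 were positive, with Pearson's r between -0.64 and 0.91. By Pearson's r 3 passed after Benjamini-Hochberg adjustment and 7 before it, and by Spearman's rho none passed after adjustment and 6 before it. All 3 were with the macrophage share in line 18 (n = 9), for Il34 (r = 0.91, rho = 0.80, exact permutation p = 0.00116, adjusted p = 0.0325), Csf1 (r = 0.86, rho = 0.82, exact permutation p = 0.00203, adjusted p = 0.0325) and Ccl7 (r = 0.86, rho = 0.83, exact permutation p = 0.00434, adjusted p = 0.0463).

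Without the 2 tumours farthest from the median these r values were 0.83, 0.72 and 0.68. Ccl7 in line cells of line 18 stood at 1.07% of its macrophage level, against 0.20 to 0.56% for macrophage markers. The part of transcripts carried over from macrophages in its relation to their share was not tested. Ccl2 in line 18 had r = 0.79, rho = 0.85 (exact permutation p = 0.0165, adjusted p = 0.132). In line 24 the r of Ccl2 with the macrophage share was 0.16. In line 18 the macrophage share rose from 3.39 ± 0.63% (SD, n = 3) at day 6 to 15.7 ± 3.44% (SD, n = 3) at day 16, so day and share moved together, and the relation within a day was not tested with 3 tumours each.

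**Figure D4:**
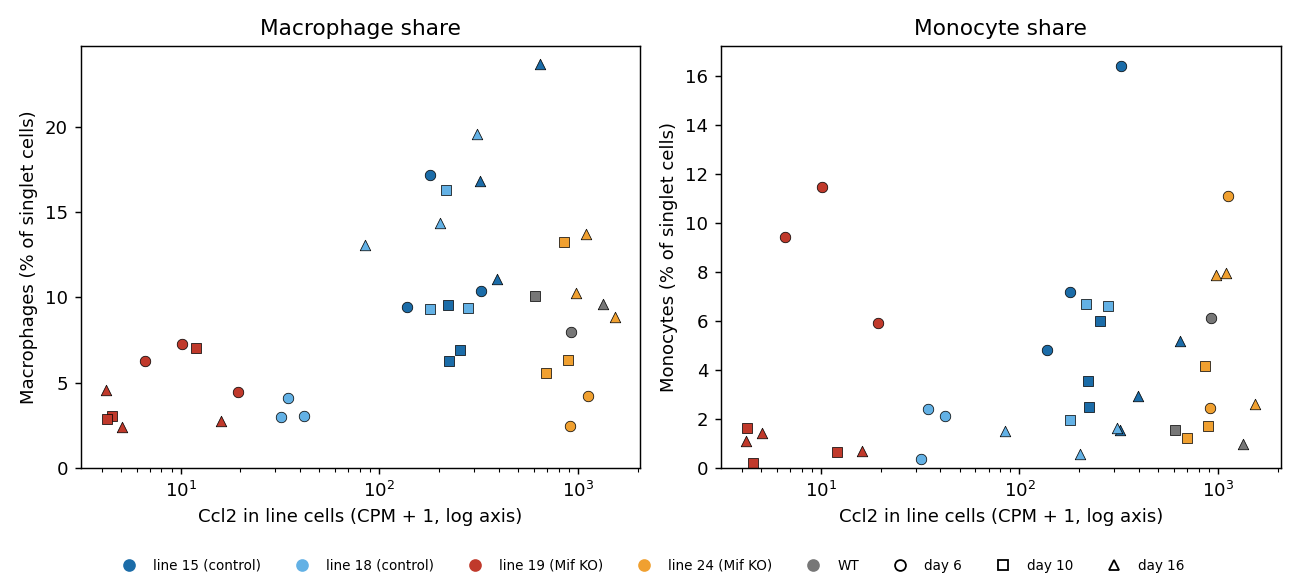
Macrophage share and monocyte share (percent of cells, y axes) against Ccl2 in line cells (CPM, log x axis), each point 1 tumour of days 6 to 16, coloured by line. Line 19 sits at the left with macrophage shares of 2.43 to 7.27%, line 24 at the right with 2.45 to 13.7%, and the monocyte shares overlap among lines.

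Other monocyte-acting chemokines and receptors formed a list of 13 genes outside the members. The genes of this list and of those below are given for the reported fit alone. Among the alternatives, genes past the threshold in KO line cells ranged from 0 to 7779. For list genes read in line cells, the part of transcripts carried over from myeloid cells was not tested. In KO line cells 5 of the 9 tested were higher and 1 lower, beside 50.6% of all genes called, with a median of 0.93 on the log2 scale against 0.02 over all genes. Cx3cl1, the membrane-bound ligand of Cx3cr1, was up by 2.18 and Ccl6 by 1.23, while Cx3cr1 was down, at -0.64 (edgeR adjusted p = 5.86e-10, 0.00142 and 0.0287). In KO macrophages 3 of 8 were higher and 1 lower, beside 37% of all genes, with Ccl5 at 1.24, Ccl4 at 0.49 and Ccl9 at -0.56 (edgeR adjusted p = 0.00384, 0.00761 and 0.0188). In KO monocytes 1 of 7 was higher (Ccl5, 1.27) and 4 were lower, beside 25.1% of all genes, with Ccl9 at -1.10 and Ccl3 at -0.90 (edgeR adjusted p = 0.000799, 8.14e-05 and 0.00124). Line 24 exceeded line 19 in all 9 tested in line cells, with Cx3cl1 at 1.77 and Ccl9 at 2.26. Of all genes there, 29.8% were higher and 28.7% lower in line 24.

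A list of 15 colony-stimulating factor receptors, growth factors and lineage regulators gave 7 of 11 higher and 1 lower in KO line cells, beside 50.6% of all genes. In KO macrophages 4 of 11 were higher and 1 lower, beside 37%. Csf2rb, the shared signalling chain of the Csf2 receptor, was higher by 1.15 and Csf3r by 1.06, and Spi1, which encodes the transcription factor PU.1, stood at -0.65. In KO monocytes 3 of 8 were higher and 3 lower, beside 25.1%, with Irf8 at 0.77 and Csf2rb at 0.57, and Cebpb at -0.53.

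NF-kB response genes, a list of 11, were higher in 8 and lower in none of the 11 tested in KO line cells, beside 50.6% of all genes, with a median of 0.96. Nfkb1 was up by 0.96 and Tnfaip3, a feedback inhibitor of the pathway, by 1.59 (edgeR adjusted p = 4.97e-06 and 5.17e-06). Between lines 24 and 19, 10 of 11 were higher in line 24, with Vcam1 at 2.57 and Il6 at 3.10. Of all genes, 29.8% were higher and 28.7% lower in line 24. All 11 were higher at day 6 than at day 0, with a median of 2.88, beside 24.4% of all genes higher and 26.8% lower. In KO macrophages 3 of 10 were higher and none lower, with Vcam1 at 1.69 and Nfkb1 at 1.10. Of all genes there, 19.4% were higher and 17.6% lower. In KO monocytes 2 of 9 were higher and 1 lower, beside 25.1%, and in KO T cells 3 of 9 and 1, beside 10.2%. Nfkbia, which encodes an inhibitor of NF-kB, was the lower one in both, at -0.48 in each (edgeR adjusted p = 0.00182 and 0.0353). From day 6 to day 16 in macrophages Ccl4 fell by 0.83 and Csf3r by 1.36 while Cx3cr1 rose by 1.46 (edgeR adjusted p = 0.00105 for Ccl4 and 0.00558 for Cx3cr1).

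Among 12840 genes, those most like each member were found by Pearson's r of log2(CPM + 1) over 24 profiles, 6 classes in each of 4 lines, which share libraries and cells. For the macrophage chemokines these were Fgd4 (0.95) and Siglec1 (0.93) for Ccl12 and Itga9 (0.94) for Ccl8. Ccl7 was most like Ang (0.91) and Ccl2 most like Rrbp1 (0.85), the weakest of the 9. Ccr2 was most like Slfn1 and Ms4a6b (both 0.99), and Csf1r most like Cd14 (0.99) and Lst1 (0.98). Csf1 was most like Ly6c1 (0.94), Il34 most like Mettl9 (0.91) and Csf2 most like Smad7 (0.91).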

How the data were processed

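Raw UMI counts per gene and cell were deposited by the authors for 6 single-cell 5-prime libraries, with hashtag counts for the same cells, and were made with Cell Ranger 6.0.0 against mm10, per the submitters' processing notes. Barcodes below 300 detected genes or above 15% mitochondrial UMIs were dropped, and the rest assigned to hashtags with Seurat 5.3.0 in R 4.3.3. The hash sheet gave line, day and letter, and 45 hashtags were used. Classes were set by marker genes that leave out the members. Counts were summed per hashtag sample and class, with at least 20 cells, and tested with edgeR 4.0.16 (quasi-likelihood, TMM scaling, genes filtered by count, Benjamini-Hochberg adjustment over all genes tested, threshold 0.05). Group fits had day and group as terms, and fits of time or between lines had line and day. The fits were checked on simulated counts with known changes. Levels, shares and orders of classes were compared by permutation tests in Python 3.11.15 with scipy 1.17.1, on log2(CPM + 1) for levels. Alternatives included DESeq2 1.42.0, and settings listed in the closing section.

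The members and the 3 other gene lists were chosen with earlier results of these data known. All 9 members are named, the 2 genes of each other list with the smallest adjusted p in each direction were available for naming, and likeness names come from the 3 highest correlations per member. The comparisons of lines 24 and 19, of lines 15 and 18 and of days 6 and 0, the Mrc1 split, the osteoclast share, the carry-over ratios and the lower ranks of classes were added after the values were seen. Sequences and gene positions came from RefSeq (GRCm38.p6) and the matching GRCm38 annotation. Pairs of samples of the same line and day all differed beyond sampling noise (37 pairs, lowest chi-square per degree of freedom 1.38). Intervals cover counting error only. Some genes of the lists are not reported here by name.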

Additional observations from a re-analysis of the deposited data

Results flagged for a closer look

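Among 88 groups of 4 to 10 tumours checked, 13 held a tumour far from the others of its line and class. A chance rate of about 1 in 20 groups would need independent groups of like tumours. These groups joined tumours of several days and shared tumours, so the count is not set against chance. Line 15 held 7 of them. Ccl2 stood at 644 CPM in line cells of the day-16 letter A tumour of line 15 (next 392.3 CPM). The day-6 letter B tumour of that line had 955 CPM of Ccl2 in monocytes (next 524), 1898.5 CPM of Ccl7 in macrophages (next 1014) and 118 CPM of Ccl8 in monocytes (next 56.4). Further tumours of line 15 had 229 CPM of Ccl12 (day 10 letter B, next 120), 350 CPM of Ccr2 (day 16 letter C, next 232) and 477 CPM of Csf1r (day 16 letter B, next 323), all in monocytes.

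In line 18 the day-10 letter A tumour had 14.7 CPM of Ccl8 in line cells (next 2.83) and 225 CPM of Ccl8 in monocytes (next 55.4), so the high Ccl8 appeared in both classes of the same tumour. The day-16 letter B tumour of line 18 had 653 CPM of Ccl2 in monocytes (next 390). In line 19, Ccl8 in macrophages stood at 1884 CPM in the day-6 letter B tumour (next 1158) and Csf1r in monocytes at 379 CPM in the day-16 letter C tumour (next 247). In line 24, Ccl12 in macrophages stood at 1232 CPM in the day-6 letter C tumour (next 697).

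The KO and control lines differed in opposite directions in the 2 mixed libraries, where both were processed together. Ccl2 in line cells of line 19 minus line 15 was -4.02 on the log2 scale in the first, and line 24 minus line 18 was 2.86 in the second. Ccl7 gave -2.78 and 1.45. Every tumour of one contrast moved against the other, and the difference between the contrasts was not tested.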

How the results depend on the processing

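Alternatives for the comparisons of KO with control included DESeq2, other scaling, no count filter, at least 50 cells per sample, another hashtag call, stricter cell and class gates, library as a term, the mixed libraries alone, sums per line and leaving out each line. Fewer were run for day 16 against day 6, and 4 for each comparison added later (DESeq2, other scaling, another hashtag call and stricter class gates). Over 37 differences of single members and 324 such values, 248 kept direction and side of the threshold, 69 fell below it, 5 turned and 2 moved past it (Ccl2 in line cells and whole tumours, without line 19). With sums per line (2 against 2) no member passed in line cells, macrophages, monocytes, T cells or whole tumours (0 in each). With library as a term the members past the threshold were 1 in line cells (3 in the report), 0 in macrophages (2), 1 in monocytes (3) and 0 in T cells (1). In the mixed libraries alone they were 0 in line cells, 1 in macrophages (neither Ccr2 nor Csf1), 1 in monocytes, 0 in T cells and 0 in whole tumours. For day 16 against day 6 they were 0 in line cells and 0 in macrophages there. Without a count filter there were 5 in monocytes, 2 in T cells and 4 over time in monocytes. At least 50 cells left 1 in monocytes. The other hashtag call gave 4 in whole tumours and 1 over time in line cells, and DESeq2 1 over time in line cells and 1 in monocytes. Leaving out a line gave 2 to 6 in line cells, 1 to 3 in macrophages, 0 to 4 in monocytes, 0 to 2 in T cells and 1 to 5 in whole tumours. Over time it gave 1 to 3 in line cells, 2 to 4 in macrophages and 0 to 1 in monocytes. Genes past the threshold between KO and control ranged from 0 to 7779 in line cells (6432 in the report), 171 to 2863 in macrophages (2240), 49 to 859 in monocytes (687), 1 to 576 in T cells (325) and 0 to 8687 in whole tumours (6975). Over time they ranged from 1099 to 5261 in line cells (4714), 101 to 1201 in macrophages (1101) and 5 to 272 in monocytes (171).

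Ccl2 turned with library as a term in line cells (-1.80) and whole tumours (-0.53), and without line 24 (-4.52 and -1.85), while without line 19 it was 2.27 and 1.61. Csf2 in line cells turned without line 24 (-0.34) and was 5.38 without line 15. The monocyte share difference of 0.10 percentage points turned with the other hashtag call (-0.34), stricter gates (-0.15) and as a share of immune cells (-1.66), and ranged from -1.36 to 1.56 without single lines. Without single lines the macrophage share difference ranged from -6.79 to -3.22 points, the latter without line 19. In the mixed libraries alone it was -8.03 points. Ccl7 in fibroblasts against macrophages turned to -0.068 with stricter gates, and 1 relation to shares passed with the other hashtag call. The cause of these changes was not tested. The line numbers are not shared between the groups and pair no samples. KO and control tumours processed together are compared within library by the fit with library as a term. Of 7724 macrophages, 4.79% lay within 1.5 times of the C1q cut, and 6461 of 22826 immune cells fell in no class or in 2.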

Other observations

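The 3 tumours called WT, which belong to no labelled group, were all in the second mixed library. Their line cells had 925, 609 and 1332 CPM of Ccl2 at days 6, 10 and 16, and Csf1 between 326 and 414 CPM. Csf2 in their line cells ranged from 4.96 to 21.9 CPM. Mif stood at 2447 CPM on average there, as in the control lines. Macrophages made up 7.99, 10.1 and 9.62% and monocytes 6.14, 1.54 and 0.98% of their cells, and their macrophages had 768 to 1120 CPM of Ccl2. Osteoclasts made up 0.0343, 0.225 and 0.0635%. No test was made with these tumours.

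Ccl2 and Csf1 UMIs were also found in T cells, and their source was not tested. Ccl2 in T cells stood at 5.36, 27.7, 223 and 16.9% of the line-cell level in lines 15, 18, 19 and 24, and at 135 CPM on average in line 24 against 18.1 to 45.7 CPM in the others. Csf1 in T cells was 29.6 to 40.1% of its line-cell level, above the 11.3 to 24.9% of the lowest 1% of abundant line-cell genes.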
